A study of Mus musculus with 9 samples.

Results

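Irf4, Tacr3, Gpx6, Cetn4 and C1qtnf12 are 5 of the genes whose signal was higher on every array of Lim1 mutant renal vesicles than on every wild-type array, at 1 or more of their probe sets. They were chosen by those signals, for that pattern, out of 18193 genes that the array names through a single symbol, and together they have 12 probe sets, each a group of short probes that reads 1 transcript region. All 12 are described below, whether or not they show the pattern. Because they were selected on the contrast of mutant against wild type, the values at these 12 probe sets are given as a description and carry no test.

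The renal vesicle is the ball of epithelium from which a nephron grows, and the Lim1 gene (current symbol Lhx1) codes for a homeodomain transcription factor with LIM domains that acts in it. At E12.5 vesicles were cut by laser from embryonic mouse kidneys, in 5 wild-type samples and 4 Lim1 mutant samples, each of about 30 to 50 vesicles. The labels call the groups wild type and Lim1 mutant, and the samples biologically independent. The sources used here do not give the allele, its zygosity, the strain, the sex or the number of embryos per sample. The p-values weigh the difference between groups against the spread between these samples. RNA was amplified in 2 rounds before hybridisation, and the deposited signals are linear.

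The 5 genes have no common function in textbooks. Irf4 encodes an interferon regulatory factor best known as a transcription factor of lymphocytes and of some myeloid cells. Tacr3 encodes the G protein-coupled receptor for neurokinin B and is best known from neurons. Gpx6 belongs to the glutathione peroxidases, which reduce peroxides with glutathione, and is known from the olfactory epithelium. Cetn4 encodes a centrin, a small calcium-binding protein of centrioles and of the base of cilia. C1qtnf12 encodes a secreted protein of the C1q and TNF domain family, also called adipolin, which is known as a hormone of fat tissue.

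In the RefSeq annotation of GRCm38.p6 the genes lie on 3 chromosomes, and none is on chromosome 11, where Lhx1 lies. Irf4 is at chr13:30749233-30766981 and Gpx6 at chr13:21295465-21319625. Tacr3 is at chr3:134829007-134934581, Cetn4 at chr3:37308627-37312446 and C1qtnf12 at chr4:155962312-155966629. The 250 bases before the annotated start were available for 4 of the 5 and are shown so that the genes can be compared, 5′ to 3′ on the strand of the gene, with the letters TATAAA (the TATA box) or CCAAT (the CCAAT box, read on either strand) in capitals:
Irf4, chr13:30748983-30749232, plus strand: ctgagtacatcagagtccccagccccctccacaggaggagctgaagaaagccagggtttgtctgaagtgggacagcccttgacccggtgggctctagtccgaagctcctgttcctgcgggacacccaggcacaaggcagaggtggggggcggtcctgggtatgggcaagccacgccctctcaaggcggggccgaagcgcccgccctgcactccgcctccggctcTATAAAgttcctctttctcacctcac
Tacr3, chr3:134828757-134829006, plus strand: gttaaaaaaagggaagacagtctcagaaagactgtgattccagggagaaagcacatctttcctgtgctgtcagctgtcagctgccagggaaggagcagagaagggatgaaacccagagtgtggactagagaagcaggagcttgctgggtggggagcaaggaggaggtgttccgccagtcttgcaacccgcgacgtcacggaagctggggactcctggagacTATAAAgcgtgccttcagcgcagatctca
Gpx6, chr13:21311953-21312202, plus strand: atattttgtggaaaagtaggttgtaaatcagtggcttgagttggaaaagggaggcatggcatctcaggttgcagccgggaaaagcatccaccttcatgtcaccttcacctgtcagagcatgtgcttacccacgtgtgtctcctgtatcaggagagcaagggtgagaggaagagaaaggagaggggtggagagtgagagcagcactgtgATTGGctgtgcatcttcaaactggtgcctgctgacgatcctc
Cetn4, chr3:37312447-37312696, minus strand: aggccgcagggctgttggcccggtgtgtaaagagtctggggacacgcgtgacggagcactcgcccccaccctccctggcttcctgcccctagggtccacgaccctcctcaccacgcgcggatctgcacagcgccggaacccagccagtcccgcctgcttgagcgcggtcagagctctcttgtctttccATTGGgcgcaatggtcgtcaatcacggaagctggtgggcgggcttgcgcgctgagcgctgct
TATAAA begins 26 bases before the start of Irf4 and 29 bases before that of Tacr3. CCAAT lies on the opposite strand 42 bases before the start of Gpx6 and 62 bases before that of Cetn4, where it reads ATTGG. Among all 32851 annotated windows from 250 bases before to 50 bases after a start, searched on both strands, 13.6% hold TATAAA and 37.4% hold CCAAT. The homeodomain core TAATTA, which 5.29% of the windows hold, is in none of the 4 windows, and the GC box GGGCGG, which 35.7% hold, is in those of Irf4 and Cetn4. These motifs were chosen after the sequences were seen and do not overlap each other. The Gpx6 window lies inside the span of the gene as annotated, downstream of its first base.

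Signals near the bottom of such an array cannot be told from background, so a reference was made of 147 probe sets for olfactory, vomeronasal and taste receptors, trace amine receptors, keratin-associated proteins and beta-defensins, genes known from other tissues. Their median was 34.1 to 63.1 on the 9 arrays and their 95th percentile 160 to 252, called the reference level below. The median of all probe sets was 144 to 195. Signals of different probe sets also depend on how well each binds, so a level is read here against the reference on its own array and not against another gene.

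The mutated gene itself was read by 2 probe sets. At 1421951_at Lhx1 read 2327 to 17587 in the wild type and 6.88 to 10.5 in mutants (log2 difference -6.64 ± 0.57, standard error, limma adjusted p = 0.00329). In limma the adjusted p was 0.0715 with the replicate number as a block and 0.065 without wild-type arrays 1 and 3, with differences of -6.91 and -6.75, so the call was lost in both fits and the direction was not. At 1450428_at it read 1696 to 18555 and 4108 to 4951 (-0.86 ± 0.58, adjusted p = 0.833). The vesicle markers Pax8 and Wnt4 were above the reference level on all 9 arrays. Wild-type arrays 3 and 1 had the lowest mean correlation with the other arrays, 0.849 and 0.859, against 0.877 to 0.901 for the others. For Gapdh, the ratio of 3 prime over 5 prime signal, a measure of transcript length after amplification, lay at 12.4 to 87.6 for wild type, highest on array 3, and at 17.8 to 61.4 for mutants. For beta-actin it lay at 14.7 to 21.7, highest on array 5, and at 16.3 to 25.2. In a captured sample, fewer cells of a type and less RNA per cell cannot be told apart.

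Across the 12 probe sets of the 5 genes, 10 had a difference above 0 and 2 below 0, and the 2 below 0 belonged to Irf4 and Tacr3. As deposited, 7 of the 12 had every mutant array above every wild-type array, a pattern that 1.34% of the 45037 probe sets on the array showed, and 0 had the reverse, which 0.697% showed. After quantile normalisation it was 8 of the 12, against 1.37% of the 27022 probe sets tested (0.884% for the reverse). The members were chosen for this pattern, and nothing is read from these counts. The 7 were 1 probe set of Irf4, 2 of Tacr3, the single probe set of Gpx6, 1 of Cetn4 and 2 of C1qtnf12. After normalisation C1qtnf12 had 1 more.

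**Figure D1:**
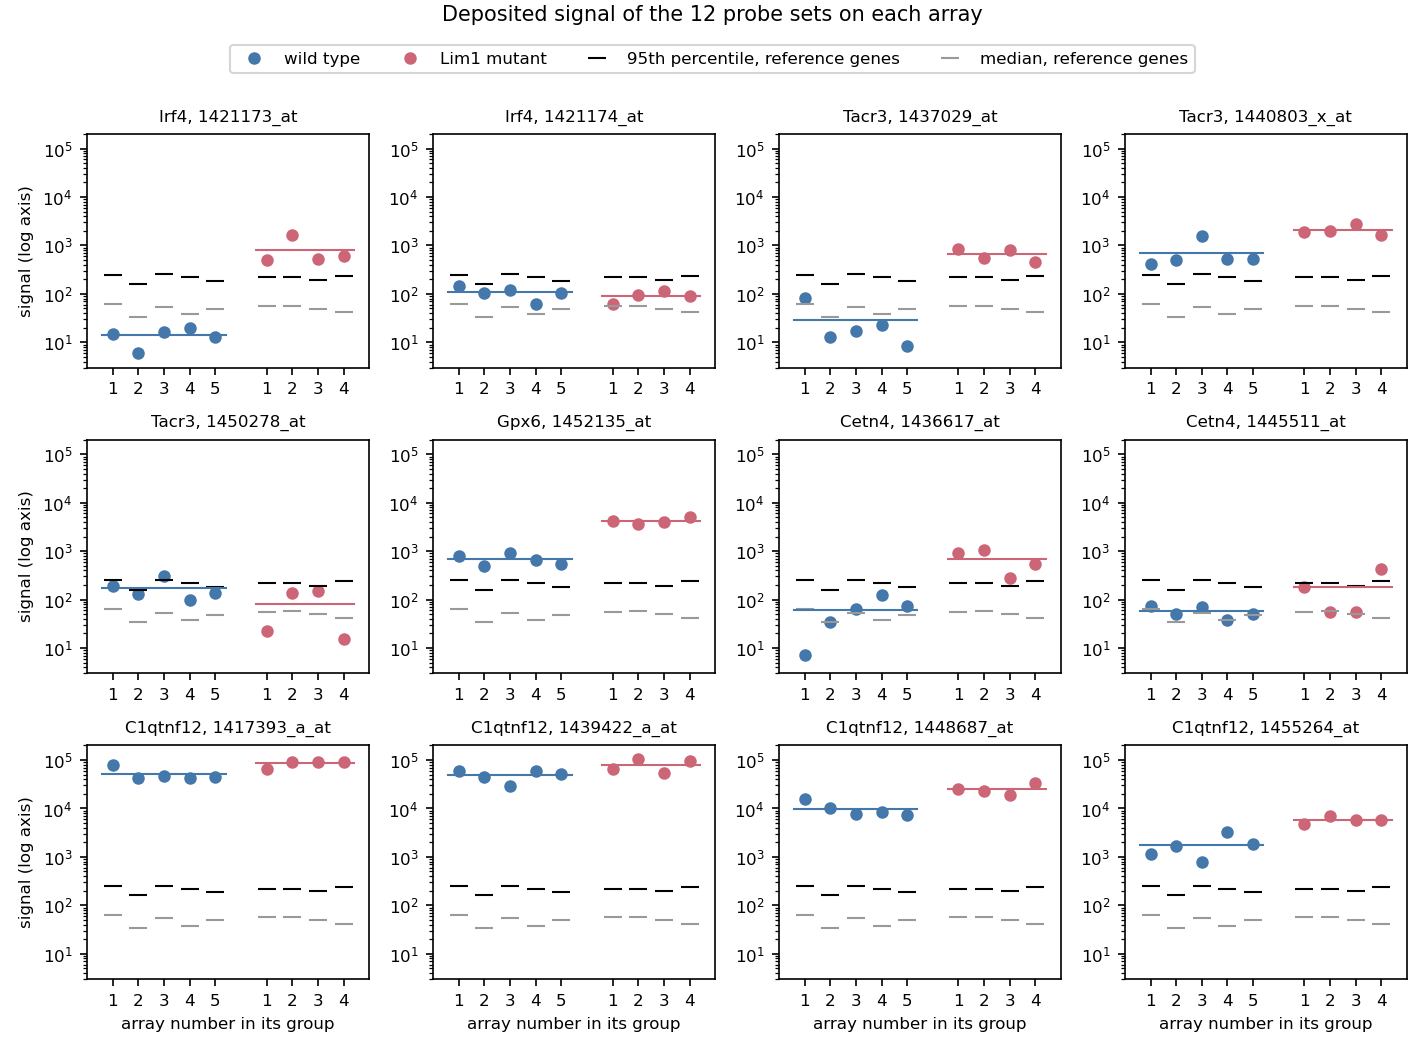
Deposited signal (log axis) of the 12 probe sets on the 5 wild-type and 4 mutant arrays, with a coloured line at each group's mean and black and grey dashes at the 95th percentile and median of the 147 reference probe sets on the same array. The wild-type points of Irf4 (1421173_at), Tacr3 (1437029_at) and Cetn4 (1436617_at) lie below the black dashes and the mutant points above them, while those of Gpx6 and C1qtnf12 lie above the dashes in both groups.

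Irf4 was higher in the mutants at 1 of its 2 probe sets. At 1421173_at the signal on wild-type arrays 1 to 5 was 14.9, 5.92, 16.7, 19.3 and 13.0, and on mutant arrays 1 to 4 it was 507, 1616, 524 and 606. All 5 wild-type values lay below the median of the reference genes on their array, and all 4 mutant values lay above the reference level, by 2.30 to 7.29 times. Group means were 14.0 ± 5.05 (SD, n = 5) and 813 ± 537 (n = 4), a log2 difference of 3.69 ± 0.43 (standard error). Because the wild-type values sit within the background, the ratio of the means, 58.3, has no sure denominator. Geometric means, which are averages of logarithms turned back into signals, were also compared. With each wild-type value raised to the reference level of its array, the geometric mean of the mutants was 3.40 times that of the wild type. This is a lower bound for the ratio of the geometric means of the groups and not for each array. The size of the log2 difference depends on the pseudocount, the constant added before the logarithm: it was 4.74 with a smaller one and 2.25 with a larger one. With the larger one Gpx6 had 2.40, so no order of Irf4 and Gpx6 by size is given.

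The other Irf4 probe set did not show the difference. At 1421174_at the wild-type arrays read 146, 102, 122, 62.7 and 103 and the mutant arrays 62.8, 93.6, 114 and 89.9, and the groups overlapped. All 9 values lay below the reference level, also on mutant array 2, where the first probe set was highest. The log2 difference was -0.26 ± 0.38, and the correlation of the 2 probe sets over the 9 arrays was -0.343. The annotation cites the same mRNA for both probe sets, and which part of it each one reads was not analysed here.

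Tacr3 was read by 3 probe sets, which gave 3 different pictures. At 1437029_at the wild-type arrays read 83.0, 12.9, 17.0, 22.9 and 8.32 and the mutant arrays 855, 543, 792 and 456. The wild-type values were below the reference level on all 5 arrays and below the reference median on 4, all but array 1. The mutant values were 1.91 to 4.11 times the reference level. Group means were 28.8 ± 30.7 and 661 ± 192, and the log2 difference was 3.29 ± 0.41. With the wild type raised to the reference level, the ratio of the geometric means was 3.04.

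The second Tacr3 probe set, 1440803_x_at, was above the reference level on all 9 arrays. It read 410, 504, 1602, 527 and 525 on the wild-type arrays and 1934, 1973, 2825 and 1662 on the mutant arrays. Wild-type array 3 stood apart from the other 4 and came within 60.7 of mutant array 4, the narrowest gap of the 7 probe sets that met the pattern as deposited. With arrays centred on their medians in place of quantile normalisation, the groups overlapped here. The log2 difference was 1.65 ± 0.46, and the suffix _x_ marks probes that can also bind other transcripts. The first and second probe sets correlated at 0.814 over the 9 arrays, but after the group means were taken out the correlation was 0.0156.

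The third Tacr3 probe set, 1450278_at, went the other way. It read 195, 130, 311, 99.9 and 137 on the wild-type arrays and 22.5, 137, 152 and 15.4 on the mutant arrays. Only wild-type array 3 exceeded the reference level, and the groups overlapped (log2 difference -1.06 ± 0.51). The annotation cites the RefSeq mRNA of Tacr3 for this probe set and expressed sequence tags for the other 2.

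Gpx6 has a single probe set, 1452135_at, and was above the reference level in both groups. The wild-type arrays read 786, 504, 938, 646 and 551 and the mutant arrays 4215, 3643, 4068 and 5134. In multiples of the reference level the wild type lay at 2.91 to 3.73 and the mutants at 16.4 to 21.5, so both groups gave a measurable level here. Group means were 685 ± 178 and 4265 ± 628, a ratio of 6.23, and the log2 difference was 2.60 ± 0.36. The lowest mutant array was 3.88 times the highest wild-type array. The signal varied by 14.7% (SD over mean) among the mutants and 26.0% among the wild-type arrays, where Irf4 at 1421173_at varied by 66.0% and 36.2%. No other probe set on this array can be set against it.

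Cetn4 differed at 1436617_at and less clearly at its other probe set. The first read 7.10, 34.3, 65.5, 123 and 72.2 on the wild-type arrays and 904, 1052, 278 and 537 on the mutant arrays. All wild-type values were below the reference level and all mutant values above it, with mutant array 3 nearest, at 1.44 times that level. Group means were 60.5 ± 43.7 and 693 ± 351, and the log2 difference was 2.75 ± 0.51. With the wild type raised to the reference level, the ratio of the geometric means was 2.92. The second probe set, 1445511_at, read 74.8, 51.4, 71.5, 37.8 and 49.7 in the wild type and 178, 54.7, 56.7 and 427 in the mutants. Mutant arrays 1 and 4 were above every wild-type array and mutant arrays 2 and 3 were among them. Only mutant array 4 exceeded the reference level there, and mutant array 2, the highest at the first probe set, was the lowest mutant at the second (log2 difference 0.76 ± 0.47, and 0.32 without mutant array 4).

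The 4 probe sets of C1qtnf12 agreed in the direction of the difference, and the gene was bright in both groups. Its 4 probe sets all had differences above 0 and all exceeded the reference level on all 9 arrays. At 1448687_at the wild-type arrays read 15665, 10035, 7811, 8395 and 7503 and the mutant arrays 25535, 22989, 18618 and 33048. The groups did not overlap, and wild-type array 1 was the nearest to the mutants. Group means were 9882 ± 3377 and 25048 ± 6051, a ratio of 2.53 (log2 difference 1.40 ± 0.26).

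At 1455264_at, the dimmest of the 4, the wild-type arrays read 1136, 1641, 776, 3272 and 1803 and the mutant arrays 4775, 6887, 5875 and 5698. The groups did not overlap either, and here wild-type array 4 was nearest (log2 difference 1.84 ± 0.39). The other pair of probe sets ranked near the top of each array. At 1417393_a_at the wild-type arrays read 77171, 42706, 45834, 43232 and 44666 and the mutant arrays 66539, 90981, 91352 and 91718. As deposited, wild-type array 1 exceeded mutant array 1. After quantile normalisation the groups no longer overlapped (log2 difference 0.79 ± 0.13), while with median centring they did. At 1439422_a_at the wild-type range of 28856 to 59206 overlapped the mutant range of 54187 to 107449, with a log2 difference of 0.72 ± 0.25. Mutant array 3 (54187) lay below wild-type arrays 1 (57987) and 4 (59206), and the groups overlapped after normalisation too. Pairs of the 4 probe sets correlated at 0.694 to 0.964 over the 9 arrays, values that include the group difference. After the group means were taken out, 1417393_a_at and 1448687_at correlated at 0.818. By the same measure 1455264_at correlated at -0.355 with 1417393_a_at and at -0.23 with 1448687_at, so within groups it did not follow them.

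**Figure D2:**
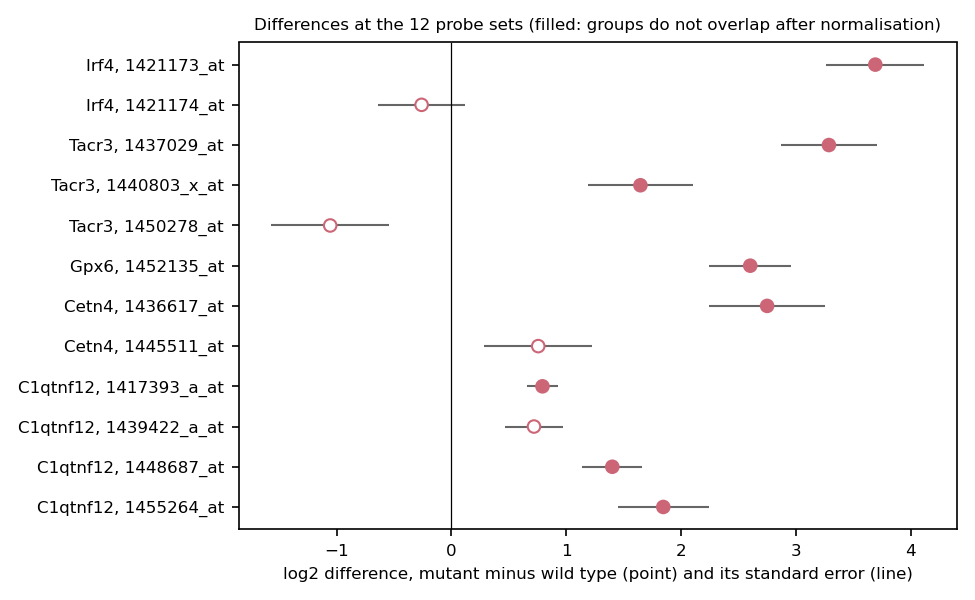
Log2 difference (mutant minus wild type) of the 12 probe sets with its standard error, from 5 wild-type and 4 mutant arrays. The differences run from -1.06 at Tacr3 1450278_at to 3.69 at Irf4 1421173_at, and filled points mark the 8 probe sets whose groups did not overlap after quantile normalisation.

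Irf4, Tacr3 and Cetn4 thus passed from the range of the reference to above it at 1 probe set each. On the whole array, 18 probe sets (0.04% of 45037) had all 5 wild-type arrays below and all 4 mutant arrays above the reference level, and 11 (0.0244%) had the reverse. Of the 18, 14 had a gene symbol, among them Irf4, Tacr3 and Cetn4. Sptlc3, a subunit of serine palmitoyltransferase, was another, with a difference of 2.87, and so was Rab3d, a GTPase of regulated secretion, with 2.42. Both were named after their values were seen. With the 99th percentile of the reference genes as the level, a choice made after the data were seen, 10 probe sets crossed it, and of the 3 genes only Irf4 was among them.

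The 5 genes did not share an order among the arrays of a group. The mutant arrays were ranked by deposited signal over the 8 probe sets without overlap after quantile normalisation. Arrays 2 and 4 were each the highest mutant 3 times and arrays 1 and 3 once each. The order can differ after normalisation: at C1qtnf12 1417393_a_at mutant array 1 was lowest as deposited and highest after it. For the 24 pairs of these probe sets that join different genes, the correlation over the 9 arrays was 0.567 to 0.955, which the choice of the members fixes. After group means were taken out it ran from -0.678 to 0.53, with a median of -0.133. These correlations share arrays and normalisation and rest on 9 points each.

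The genes with the most similar pattern over the 9 arrays were sought among the tested probe sets with 1 symbol, with the brightest probe set without overlap standing for each member. For Irf4 they were Rab3d (r = 0.984), Gas2l1 (0.970) and Col18a1 (0.958). For Tacr3 at 1440803_x_at they were Snap29 (0.964), Scn2b (0.962) and Prrc2b (0.940). For Gpx6 they were Igf2 (0.965), Rab3d (0.960) and the Tacr3 probe set 1437029_at (0.955). Those of Cetn4 were Shroom3 (0.963), Tmem39a (0.957) and Trim28 (0.957), and those of C1qtnf12 at 1417393_a_at were Creg1 (0.960), Ermp1 (0.956) and Aass (0.938). Rab3d thus stood in the lists of both Irf4 and Gpx6, with a mean of 35.8 for wild type and 407 for mutants. These correlations include the group difference by which the members were chosen. After the group means were taken out, Rab3d correlated at 0.739 with Irf4 and at 0.293 with Gpx6. Over all the lists such values ran from 0.268 (Tacr3 1437029_at with Gpx6) to 0.912 (Col18a1 with Irf4). The listed genes are those with the highest of very many correlations over 9 arrays, given as a description.

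The relatives of the 5 genes, which the rule did not use, were tested with limma, with p adjusted by the Benjamini-Hochberg method over all 27022 probe sets. Of 107 family and pathway genes tested, none passed in either direction, where 4 probe sets (0.0148%) passed as higher and 5 (0.0185%) as lower on the whole array. At an unadjusted p under 0.05 there were 3 higher and 2 lower, 4.67% of the 107, against 7.73% of all 13226 genes and 6.67% of all probe sets. Their median difference was 0.07, the same as the 0.07 of all genes.

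Among the interferon regulatory factors, 6 of 7 on the array were tested, 3 with differences above 0 and 3 below, and the median was -0.00. Irf1, an activator of interferon genes, read 1011 ± 451 on wild-type and 1292 ± 388 on mutant arrays (log2 difference 0.44 ± 0.49, adjusted p = 0.910), and Irf7, a factor of the interferon response, 157 ± 39.4 and 193 ± 50.0 (0.17 ± 0.37, adjusted p = 0.958). Irf8, the closest relative of Irf4 and a myeloid factor, read 179 ± 97.3 and 208 ± 197 (-0.17 ± 0.59, adjusted p = 0.978) and exceeded the reference level on 3 of 9 arrays. Irf8 was named after its value was seen. Of 12 tested partners and regulated factors of Irf4, 7 were above 0 and 5 below. Def6, which binds Irf4 in lymphocytes, had the lowest p among them (-1.42 ± 0.67, adjusted p = 0.757), and Nfatc1, a factor of calcium signalling, came next (-0.82 ± 0.43, adjusted p = 0.786).

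In the tachykinin pathway, 9 of 12 genes on the array were tested, with 4 above 0, 5 below and a median of -0.07. The ligand of Tacr3 is encoded by Tac2, which read 84.0 ± 93.8 and 120 ± 44.2, lay under the filter and exceeded the reference level on 1 array. The receptors Tacr1 (16.3 ± 5.58 and 20.6 ± 4.86) and Tacr2 (205 ± 90.2 and 182 ± 23.8) exceeded it on 0 and 3 arrays. These 3 were named for their role, after their values were seen. Mme, the membrane peptidase that cleaves tachykinins, had the lowest p, at 1994 ± 1661 and 589 ± 482 (-1.78 ± 0.65, adjusted p = 0.703). Gna11, a G protein subunit of this signalling, had a difference of 0.30 ± 0.29 (adjusted p = 0.887).

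Of the glutathione peroxidases, 5 of 7 were tested, 3 above 0 and 2 below, with a median of 0.26. Gpx7, a peroxidase of the endoplasmic reticulum, read 1819 ± 733 and 3182 ± 367 (0.88 ± 0.35, adjusted p = 0.722), and Gpx3, the secreted plasma form, 1120 ± 511 and 1558 ± 342 (0.56 ± 0.44, adjusted p = 0.863). The list of glutathione and peroxide handling had 26 tested genes, 15 above 0 and 11 below, and a median of 0.07. Glrx, a glutaredoxin, had the lowest p there (1.23 ± 0.48, adjusted p = 0.720), followed by Txnrd1, a thioredoxin reductase (0.89 ± 0.42, adjusted p = 0.763).

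Centrins and centriole genes numbered 17 tested, 9 above 0 and 8 below, with a median of 0.01. Poc1b, a centriole protein, had the lowest p (1.19 ± 0.53, adjusted p = 0.748), then Ccp110, which caps centrioles (-0.78 ± 0.47, adjusted p = 0.811). The other centrins, named after their values were seen, had differences of 0.02 (Cetn1), -0.36 (Cetn2) and -0.21 (Cetn3). Of 11 genes of the BBSome and its chaperonin-like partners, which serve transport to cilia, 7 were above 0 and 4 below (median 0.28). Ttc8 (-0.69 ± 0.43) and Bbs10 (0.86 ± 0.67) had the lowest p (adjusted p = 0.813 and 0.861).

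Of the C1q and TNF domain family, 10 of 19 genes were tested, 6 above 0 and 4 below, with a median of 0.16. Cbln4, a secreted synaptic organiser, had the lowest p of all 107 genes, at 1185 ± 784 and 173 ± 124 (-2.44 ± 0.67, adjusted p = 0.586). C1qtnf6, a relative of C1qtnf12, had a difference of 0.62 ± 0.52 (adjusted p = 0.870). Of 11 genes of the adiponectin and insulin response, 9 were above 0 and 2 below, with a median of 0.25. They included Insr, the insulin receptor (0.56 ± 0.56, adjusted p = 0.895), and Adipor2, an adiponectin receptor (0.29 ± 0.29, adjusted p = 0.898).

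**Figure D3:**
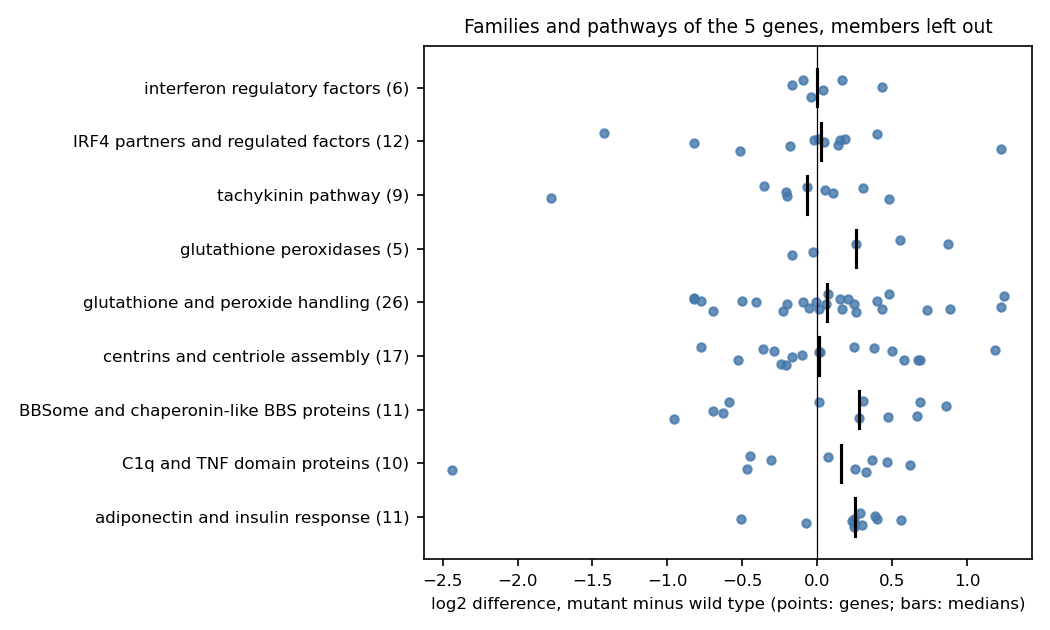
Log2 differences (mutant minus wild type) of the tested genes in the 9 family and pathway lists, with the 5 genes themselves left out; points are genes, black bars are medians and the number tested is in brackets. The medians lie between -0.07 and 0.28, and none of the 107 genes passed the test.

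The 5 genes are known from other tissues, and markers of those tissues were examined beside them. Of 12 lymphocyte markers on the array, 9 lay below the reference level on all 9 arrays, Cd3e and Cd3g among them, and their summed signal was 1717 to 2405 in the wild type and 2151 to 2878 in the mutants. The lowest p among them were those of Cd79b (62.0 to 704 and 296 to 856, log2 difference 0.91 ± 0.66) and Ms4a1 (46.3 to 183 and 112 to 186, 0.29 ± 0.40), both B cell genes. The 12 macrophage markers summed to 1648 to 26822 in the wild type, highest on array 3, and to 3715 to 6793 in the mutants. Csf1r, the receptor that defines macrophages, read 195 to 16543 and 962 to 1926. Of the 11 macrophage markers tested, 8 had differences above 0 and 3 below, with a median of 0.39, and none passed. The lowest p were those of Cd68, a lysosomal protein of macrophages, at 406 ± 393 and 945 ± 395 (1.56 ± 0.77, adjusted p = 0.776), and Adgre1, which encodes F4/80. Adgre1 read 131 to 231 on the wild-type arrays and 279 to 544 on the mutant arrays (0.71 ± 0.41, adjusted p = 0.803). Every mutant array was above every wild-type array, which 1.34% of the 45037 probe sets showed. Irf4 was chosen for this pattern, so nothing is read from the likeness. On wild-type array 3 the sum of the macrophage markers was highest, while Adgre1 was below every mutant array, and Irf4 read 16.7 at 1421173_at. A macrophage part in the Irf4 signal was not tested. The 7 melanocyte markers summed to 374 to 1549 and 667 to 2325, with Tyr below the reference level on every array and Mitf above it on 3. Mitf and Pmel had the lowest p, with differences of 0.70 ± 1.12 and 0.60 ± 0.86.

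Neural markers, which bear on Tacr3, summed to 1573 to 9299 in the wild type, highest on array 3, and to 1710 to 2326 in the mutants. Stmn2 (-0.94 ± 0.45) and Elavl4 (-0.59 ± 0.53), both neuronal genes, had the lowest p. Wild-type array 3 was also the highest wild-type array at Tacr3 1440803_x_at. That array had the highest wild-type sum of the macrophage, cap mesenchyme, stroma, endothelial and erythroid markers too, and not of the other marker lists. The 6 olfactory markers on the array, which bear on Gpx6, summed to 2099 to 4725 and 2697 to 6277. By far the brightest was Adcy3, at 3247 ± 893 and 3262 ± 1258 (0.01 ± 0.35), named after its values were seen. Of the 6, 3 lay below the reference level on all arrays. Lowest in p were Omp, the marker of olfactory neurons, at 72.4 to 344 and 272 to 420 (0.57 ± 0.48), and Gnal (0.15 ± 0.50). Markers of motile cilia, which bear on Cetn4, summed to 2778 to 5133 and 2778 to 4218, and Foxj1, their master regulator, exceeded the reference level on 1 of 9 arrays. The lowest p there were those of Dnaic1 (0.61 ± 0.38) and Dnah11 (-0.43 ± 0.44), which encode parts of the dynein of cilia.

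Adipocyte markers, which bear on C1qtnf12, summed to 1341 to 10016 and 6373 to 10671, where Lpl, the lipoprotein lipase, read 24.2 to 9173 and 5786 to 10549 (2.05 ± 1.27) and Fabp4, a fatty acid carrier, 147 to 1266 and 56.6 to 460 (-1.01 ± 0.69). Pparg and Cebpa, which define adipocytes, exceeded the reference level on 1 and 0 arrays. None of the tested genes in these lists passed the test, with the lowest adjusted p at 0.766. Any part of these cell types in the differences of the 5 genes was not tested.

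Markers of the kidney's own compartments moved between arrays as well. Ureteric bud markers summed to 10590 to 56021 in the wild type and to 4262 to 8382 in the mutants, with 7 of 8 tested genes below 0. The lowest p there were those of Emx2, a homeobox gene, at 1617 to 11077 and 867 to 1250 with no overlap (-2.16 ± 0.51, adjusted p = 0.387), and Calb1 (-2.21 ± 1.15). Endothelial markers summed to 4586 to 27330 and 4249 to 6773, with all 9 tested below 0 (Cdh5 -0.65 ± 0.42 and Erg -1.42 ± 0.95 lowest in p), and stroma markers to 20299 to 121417 and 21901 to 41250, with 5 above and 5 below. Meis1, a stromal homeobox gene, read 2895 to 4755 and 6182 to 7848 with no overlap (0.85 ± 0.25, adjusted p = 0.647), while Pdgfra had -1.61 ± 0.90. The ranges of the cap mesenchyme (26122 to 39114 and 29387 to 36718), the renal vesicle (73256 to 213360 and 90895 to 109764) and erythroid cells (50159 to 155873 and 33751 to 119238) overlapped as sums. Within the cap mesenchyme list, Meox1 read 61.4 to 879 in wild type and 934 to 2729 in mutants with no overlap (2.18 ± 0.71, adjusted p = 0.668). Six2, the factor that maintains nephron progenitors, read 858 to 1154 and 1134 to 3006 (0.88 ± 0.40, adjusted p = 0.748). Of the vesicle list, Dll1 and Jag1, both Notch ligands, had -1.33 ± 0.48 and -0.52 ± 0.21, and of the erythroid list Gata1 and Hbb-y had -0.76 ± 0.46 and -0.31 ± 0.26. On the whole array, 1.34% of the 45037 probe sets had every mutant array above every wild-type array, as Meis1 and Meox1 did. The reverse, seen at Emx2, was shown by 0.697%. No gene of these 6 lists passed at the probe set that represents it, and their part in the differences of the 5 genes was not tested.

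Genes beside the 5 on their chromosomes were examined to describe the regions. Of the 50 nearest protein-coding neighbours, 5 on each side of each gene, 43 were on the array and 35 were tested. None passed in either direction, where 0.0333% of all probe sets passed, with the lowest adjusted p at 0.638. Differences were above 0 for 25 and below 0 for 10, where all 13226 genes had 7467 above and 5759 below. The median was 0.20, against 0.07 for all genes. In limma an unadjusted p under 0.05 was reached by 2 of the 35, where 7.73% of all genes reached it. Nothing is read from this count. Both were named after their values were seen: Spry1, a feedback inhibitor of FGF signalling 5 genes from Cetn4 (1.14 ± 0.33), and Ints11, a subunit of the Integrator complex 4 genes from C1qtnf12 (-0.81 ± 0.27).

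Bbs12, a chaperonin-like protein of cilia, starts 107 bases from Cetn4 on the other strand, so that the window printed for Cetn4 holds the start of Bbs12 and ends beside that of Cetn4. It read 2786 ± 1820 and 2254 ± 606 (log2 difference 0.01 ± 0.59, adjusted p = 0.998), against 2.75 at Cetn4. On the other side of Cetn4, Il21, a cytokine, was below the reference level on all arrays. Gpx5, another glutathione peroxidase 2737 bases from Gpx6, read 111 ± 59.5 and 29.8 ± 29.3, below the reference level on all 9 arrays, and the probe set was not tested. Olfr1367, on the other side of Gpx6, had no probe set of its own name.

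Dusp22, a phosphatase, and Exoc2, a subunit of the exocyst, flank Irf4 and had differences of 0.60 ± 0.47 and 0.56 ± 0.43 (adjusted p = 0.862 and 0.859). Cxxc4, an inhibitor of Wnt signalling, and Cenpe, a kinetochore kinesin, flank Tacr3, with 1.28 ± 0.64 and 0.40 ± 0.28 (adjusted p = 0.784 and 0.844). Ube2j2, a ubiquitin-conjugating enzyme 2707 bases from C1qtnf12, had a difference of -0.17 ± 0.18 and B3galt6, a galactosyltransferase of proteoglycan synthesis, one of 0.28 ± 0.68 (adjusted p = 0.909 and 0.964).

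**Figure D4:**
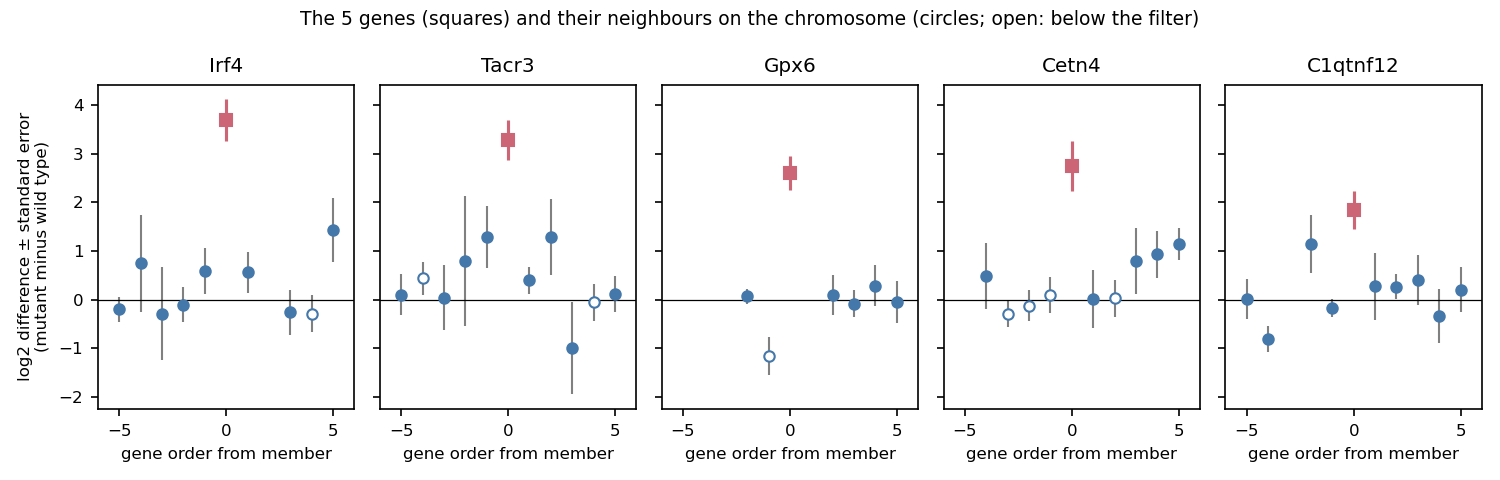
Log2 differences (mutant minus wild type) with standard errors for Irf4, Tacr3 (1437029_at), Gpx6, Cetn4 and C1qtnf12 (1455264_at), as squares, and for the genes up to 5 places away on the chromosome, as circles, open where the gene was under the filter. The squares stand at 1.84 to 3.69, each at the probe set of the gene with the largest difference, while the tested neighbours of all 5 lie between -0.997 and 1.43.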

How the data were processed

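The authors deposited 1 linear intensity per probe set and array, and the submitters' processing notes name GCOS, the Affymetrix software. Its version, algorithm and target value: not given in the sources used here. With the 2% of probe sets at either end left out, every array had a mean of 1500, so the deposited values were already scaled. Amplification in 2 rounds, per the labels' protocols, favours the 3 prime end of transcripts.

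Probe sets were named by the platform annotation: 34958 had 1 symbol, 932 several and 9211 none. The members and the gene lists were chosen with earlier results of these data known. Intensities were transformed as log2(value + 42.41), the 25th percentile of all values, which makes changes at dim probe sets look smaller. Array medians on that scale spanned 0.349, more than the 0.1 allowed, and quantile normalisation followed. Of 45037 probe sets that are not controls, 27022 (mean not under the 40th percentile) entered limma 3.58.1 in R 4.3.3 (lmFit, eBayes with a trend, two-sided, group only), which includes 10 of the 12 probe sets of the members. The fit was also run on simulated data with independent normal values. Those lack effects shared by the probe sets of an array, so nothing is read from that run here. Signals are means ± SD as deposited, log2 differences have standard errors, and precision is limited by how many arrays there are.

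A gene was represented by its brightest tested probe set. Named were all member probe sets, the genes of each list past adjusted p 0.05 or else the 2 with the lowest p, the nearest neighbour on each side, the 3 genes of highest Pearson r per member, Lhx1 and the first 2 markers of a list where called defining. Promoter windows are from RefSeq (GRCm38.p6), of which 4 of the 5 members matched. Alternatives tried were the scaling, pseudocount, filter, trend, array weights, averaged probe sets, replicate block and arrays left out.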

Additional observations from a re-analysis of the deposited data

Results flagged for a closer look

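Among 24 groups of values (12 probe sets in 2 groups), 5 had an extreme value that stood apart by Dixon's criterion. At 1 in 20, about 1.2 would be flagged among independent groups of normal values. These groups share arrays and hold linear signals, so the flags are a description and nothing is read from their number. At Irf4 1421173_at, mutant array 2 read 1616, against 507 to 606 on the other mutants. At Tacr3 1437029_at, wild-type array 1 read 83.0, the only wild-type value above the median of the reference genes. At Tacr3 1440803_x_at, wild-type array 3 read 1602, against at most 527 on the other wild-type arrays. At C1qtnf12 1417393_a_at, both the wild-type and the mutant array numbered 1 stood apart, at 77171 (highest of its group) and 66539 (lowest of its group), which is where the groups overlapped as deposited.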

How the results depend on the processing

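The differences at the 12 member probe sets kept their sign in each of the 192 values from 16 alternatives. These were scaling, pseudocount, array weights, replicate block and arrays left out. Where the groups did not overlap, the choice of the members largely fixed the sign when arrays were left out, so nothing is read from it there. Of the 192 values, 187 moved by less than 1 SD. The other 5 came from the pseudocount: at the 10th percentile Irf4 1421173_at had a difference of 4.74 and Tacr3 1437029_at 4.16, and at the median they had 2.25 and 2.01 and Cetn4 1436617_at 1.79. The sizes of these 3 differences therefore depend on the pseudocount. With each array left out in turn, Irf4 1421173_at ranged from 3.30 to 3.88, Tacr3 1437029_at from 3.16 to 3.55, Gpx6 from 2.48 to 2.71, Cetn4 1436617_at from 2.49 to 3.06 and C1qtnf12 1448687_at from 1.25 to 1.56. Without mutant array 2, Tacr3 1437029_at (3.34) exceeded Irf4 (3.30). Cetn4 1445511_at ranged from 0.32, without mutant array 4, to 1.04, C1qtnf12 1439422_a_at from 0.52 to 0.94, 1417393_a_at from 0.73 to 0.87 and 1455264_at from 1.61 to 2.12. Tacr3 1440803_x_at ranged from 1.48 to 1.95 and 1450278_at from -1.38 to -0.76, and Irf4 1421174_at from -0.40 to -0.12. No list gene and no neighbour passed under any alternative run, including the filter, the variance trend, averaged probe sets (lists only) and the fit without wild-type arrays 1 and 3. An unadjusted p under 0.05 in limma was reached by 3 to 8 list genes and 2 to 5 neighbours. In the main fit 7.73% of all genes reached it. Deviations from the group means correlated at -0.105 to 0.0537 for arrays of the same number in the 2 groups. For arrays of different numbers it was -0.116 to 0.134. Arrays can be handled together without deviating together, so these values cannot decide whether the numbers pair them. With the replicate block, 0 list genes and 0 neighbours passed, and on the whole array 0 probe sets passed against 9 without it, so that the call of Lhx1 at 1421951_at was lost too. Without wild-type arrays 1 and 3 together it was also 0, and with single arrays left out 3 to 8. With the reference level at the 90th percentile, an alternative chosen after seeing the data, 21 probe sets crossed it in place of 18, Irf4, Tacr3 and Cetn4 among them.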
